A study of Mus musculus with 12 samples.

Results

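The metallothioneins examined were Mt1, Mt2 and Mt3, found by gene symbol through their Ensembl mouse identifiers (ENSMUSG00000031765, ENSMUSG00000031762 and ENSMUSG00000031760), 3 genes of the 27866 in the count table of the ACSA-2 fraction and of the 30359 in that of the CD11b fraction. All 3 had counts in each of the 12 libraries and passed the filter on low counts in every comparison. Mt4, the remaining gene of the cluster, was not analysed here. The libraries came from hippocampi of male C57Bl6/J mice that had received, at 2 months of age and in CA1 of both hemispheres, an AAV2/9 vector driving either the adenosine A2A receptor (AAV-A2A) or eGFP (AAV-GFP controls) from the astrocytic GfaABC1D promoter. Animals of both groups thus carried an AAV, were studied 2 months after injection, and differed in the transgene. Whole hippocampi were dissociated, so cells outside the injected area were included. Astrocytes were taken with beads against the surface antigen ACSA-2, and microglia were then taken from the remaining cells with beads against CD11b. Each fraction held 3 AAV-GFP libraries and 3 AAV-A2A libraries, named below by their vector and label number. The study counts animals as the replicates of its RNA-seq groups, while the labels do not state whether a library is 1 animal or a pool, and p-values measure the spread between these libraries.

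Metallothioneins are small proteins rich in cysteine that bind zinc and copper, buffer free zinc and react with oxidants. Mt1 and Mt2 are made in many tissues, and in brain chiefly in astrocytes. They are induced by zinc through the metal-sensing transcription factor MTF1, which binds metal response elements in their promoters, and also by glucocorticoids and by cytokines acting through gp130 and STAT3. Mt3 was first described as a growth inhibitory factor of brain, is enriched in the nervous system and is known as poorly inducible by metals.

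The 3 genes lie next to each other on the plus strand of chromosome 8 (GRCm38, the mm10 build used for the counts). Mt3 is at chr8:94152607-94154146, Mt2 at chr8:94172664-94173568 and Mt1 at chr8:94179082-94180327. RefSeq windows from 250 bases before to 50 bases after each annotated start (GRCm38.p6) are shown because the elements named above are described in the promoters of Mt1 and Mt2. The RefSeq starts of Mt1 and Mt2 differ by some bases from the gene starts just given. Whether the start used is the main start of the gene was not tested. The windows are chr8:94178839-94179138 for Mt1, chr8:94172368-94172667 for Mt2 and chr8:94152357-94152656 for Mt3, all on the plus strand, and capitals mark each match to the metal response element core (TGCACNC or TGCGCNC, on either strand).
Mt1: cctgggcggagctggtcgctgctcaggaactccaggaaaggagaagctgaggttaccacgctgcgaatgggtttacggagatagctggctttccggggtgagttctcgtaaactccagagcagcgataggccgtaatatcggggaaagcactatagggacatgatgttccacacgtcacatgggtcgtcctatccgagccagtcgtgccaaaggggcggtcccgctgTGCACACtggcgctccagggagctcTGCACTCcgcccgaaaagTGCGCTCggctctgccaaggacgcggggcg
Mt2: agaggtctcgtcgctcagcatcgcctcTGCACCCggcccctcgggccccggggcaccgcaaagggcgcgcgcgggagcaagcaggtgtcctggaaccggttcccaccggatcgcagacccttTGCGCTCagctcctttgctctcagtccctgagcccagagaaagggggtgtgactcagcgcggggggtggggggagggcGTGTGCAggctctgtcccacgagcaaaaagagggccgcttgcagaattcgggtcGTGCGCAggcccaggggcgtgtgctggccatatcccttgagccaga
Mt3: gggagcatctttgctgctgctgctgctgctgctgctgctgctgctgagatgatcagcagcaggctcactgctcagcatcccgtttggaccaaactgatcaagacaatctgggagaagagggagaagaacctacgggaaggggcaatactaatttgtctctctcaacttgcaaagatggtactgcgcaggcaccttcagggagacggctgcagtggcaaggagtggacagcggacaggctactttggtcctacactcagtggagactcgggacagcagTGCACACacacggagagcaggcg
Mt1 held 3 matches, the first base of which lay at positions -23, 3 and 21 from the start, and Mt2 held 4, at -223, -128, -50 and 5. Mt3 held 1, at 28. Of 32851 promoter windows of the same length, 25.7% held at least 1 match, 1.97% at least 3 and 0.518% at least 4. The core of the antioxidant response element (TGAC and GC with 3 bases of any kind between them) was found once in the Mt2 window, at -79 and apart from the other matches, and in none of the other 2 windows; 12.4% of all windows held it. No STAT site (TTC and GAA with 3 bases of any kind between them, found in 8.30% of all windows) was found in these 3 windows. These are matches of letters in short windows around 1 annotated start of each gene, and their positions and numbers hold for that start only. Elements near another start of the same gene can lie outside the windows. Bases outside the windows were not searched, and no binding was measured.

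The 3 transcripts are short, which bears on how they were counted. The spliced principal transcripts have 549 bases for Mt1, 511 for Mt2 and 536 for Mt3. All annotated exons together cover 1246, 588 and 1066 bases, against a median of 3488 bases over 22028 protein-coding genes. None of the 40-base or 50-base stretches of these transcripts occurred in an annotated transcript of another locus. Mt2 shares 432 of its 588 exonic bases (73.5%) with Gm45774, an antisense gene on the opposite strand. Reads that fell on overlapping genes were discarded by the authors' counting, for which no strand setting is given in the sources used here, and the library kit does not mark strand. If strand was not used, the count of Mt2 came from at most 156 exonic bases and understates its level. Its comparison between libraries uses the same bases throughout. Counting by strand would have given Gm45774 part of the reads on the shared bases. Gm45774 had 159 to 256 counts in ACSA-2 libraries, where Mt2 had 7123 to 12592, and 0 to 38 in CD11b libraries. The level of Mt2 per kb of all its exons is therefore read as a lower bound.

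Library totals ranged from 33937067 to 53206974 counts. Adora2a, which encodes the A2A receptor, followed the labels: ACSA-2 libraries with the A2A vector had 655 to 927 CPM against 23.2 to 25.6 CPM with eGFP, and CD11b libraries 14.97 to 45.2 against 3.77 to 8.30 CPM. CPM here are normalised read counts, relative to the library total after TMM scaling over the 12 libraries. The 12 astrocyte markers summed to 24368 to 37612 CPM in ACSA-2 libraries and to 287 to 538 CPM in CD11b libraries. The 12 microglia markers summed to 568 to 987 CPM in ACSA-2 and to 12812 to 100142 CPM in CD11b libraries. The CD11b libraries were not alike: the 10 choroid plexus markers, led by Ttr (transthyretin), summed to 106115 CPM in GFP-2328, 86184 in GFP-2329 and 57473 in A2A-2347, but to 165 in GFP-2331, 125 in A2A-2343 and 30.1 in A2A-2344. Microglia markers summed to 12812 to 29832 CPM in the first 3 of these libraries and to 68183 to 100142 CPM in the other 3. The values of the 3 metallothioneins that use CD11b libraries are therefore given with and without the libraries rich in choroid plexus markers.

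In the ACSA-2 libraries Mt1 was among the most abundant transcripts. Together the 3 metallothioneins took 0.369 to 0.594% of all counts. Mt1 stood at 4079 (GFP-303), 3180 (GFP-306) and 3123 CPM (GFP-307) with eGFP, and at 4422, 3316 and 3082 CPM in A2A-309, A2A-310 and A2A-313. By count it ranked between place 10 and place 29 of all genes of the library. Mt3 had 745, 490 and 644 CPM in the AAV-GFP libraries and 872, 590 and 653 CPM in the AAV-A2A libraries, which put it between place 99 and place 246. Mt2 had 244, 213 and 215 CPM against 352, 232 and 215 CPM in the same order, between place 335 and place 769. For each of the 3 genes the groups overlapped, and A2A-309 was the highest library.

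Per kilobase of exonic length, which allows levels of different genes to be compared, Mt1 reached 2777 ± 430 CPM per kb (SD, n = 3) in ACSA-2 cells of AAV-GFP controls, Mt3 587 ± 120 and Mt2 382 ± 29.6. The order of Mt2 and Mt3 depended on the length used. With only the bases of the principal transcripts that belong to no other gene, the levels were 6303 ± 976 CPM per kb for Mt1, 1438 ± 111 for Mt2 and 1168 ± 239 for Mt3. Mt1 was the most abundant of the 3 by either length, in each of the 12 libraries.

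**Figure D1:**
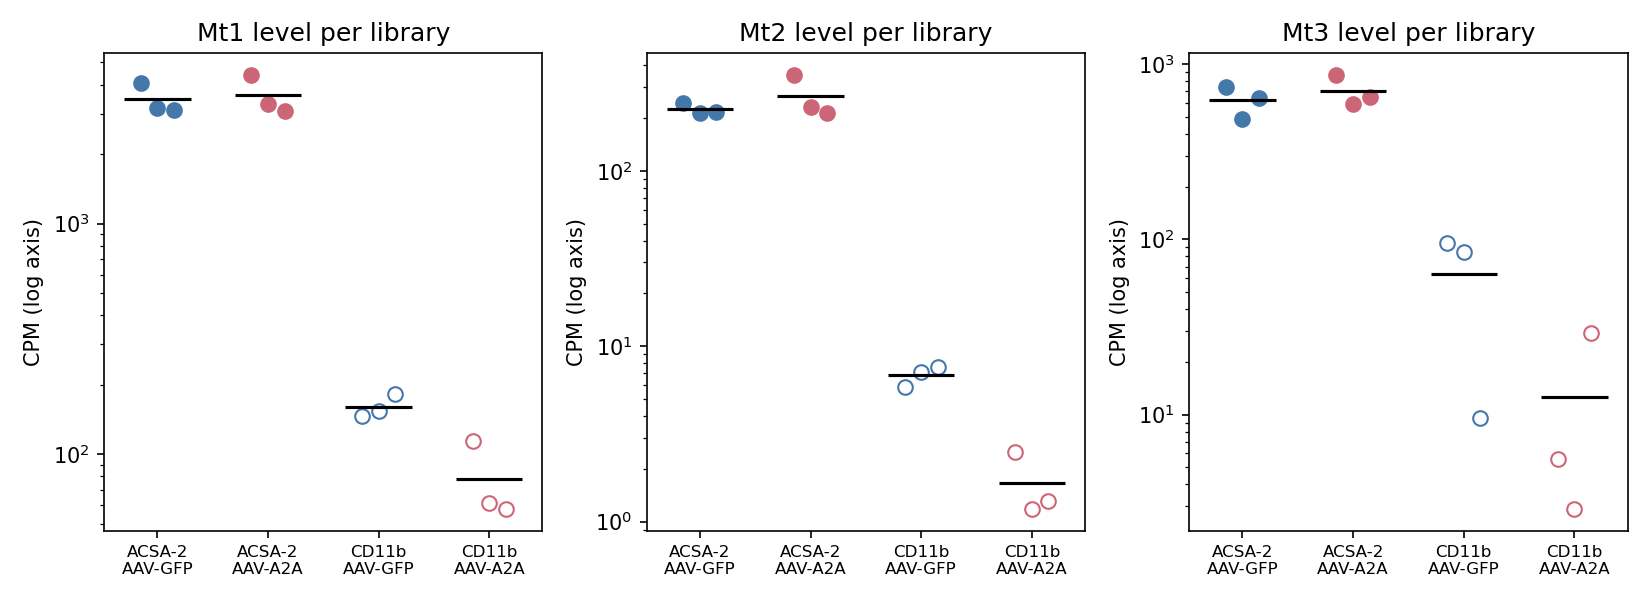
CPM of Mt1, Mt2 and Mt3 (log axis) in the 12 libraries, by fraction and vector. Points are libraries (filled for ACSA-2, open for CD11b) and black lines are group means. Mt1 and Mt2 of CD11b cells do not overlap between AAV-GFP and AAV-A2A, where 10.5% of all genes tested lie lower in every AAV-A2A library. Mt3 is spread over 2.90 to 95.1 CPM in CD11b cells.

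In the CD11b libraries all 3 genes were lower. Mt1 had 146, 154 and 182 CPM in GFP-2328, GFP-2329 and GFP-2331, and 114, 61.4 and 57.9 CPM in A2A-2343, A2A-2344 and A2A-2347. Mt2 had 5.89, 7.16 and 7.60 CPM in the AAV-GFP libraries and 2.51, 1.18 and 1.31 CPM in the AAV-A2A libraries, which rest on 291 to 314 and 40 to 88 counts. The AAV-A2A libraries lay below all AAV-GFP libraries for both genes, as they did for 10.5% of all genes tested in this fraction. Mt3 had 95.1, 85.1 and 9.60 CPM against 5.59, 2.90 and 29.3 CPM, and its groups overlapped. Together the 3 genes took 0.00613 to 0.0289% of the counts of a CD11b library.

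The fractions were compared first within AAV-GFP controls, to ask in which fraction the transcripts were higher when the receptor is not overexpressed. All 3 metallothioneins were higher in the ACSA-2 than in the CD11b fraction: Mt2 by a log2 FC of 5.03 ± 0.36 (SE, a 32.6-fold difference), Mt1 by 4.43 ± 0.38 (21.5-fold) and Mt3 by 3.31 ± 0.90 (9.89-fold). Adjusted p-values from edgeR's quasi-likelihood test were 9.12e-06, 2.33e-05 and 0.0198. A gene counts as called when its adjusted p is below 0.05 and its log2 FC beyond 0.32 in size, and 12.3% of 18602 genes tested were called higher in the ACSA-2 fraction. In AAV-A2A animals the same difference was 7.32 ± 0.41 for Mt2 (160-fold), 5.54 ± 0.40 for Mt1 (46.4-fold) and 5.80 ± 1.02 for Mt3 (55.9-fold), with adjusted p-values of 1.68e-06, 4.79e-06 and 0.000819; 21.0% of genes were called higher in ACSA-2 there. The call of Mt3 in AAV-GFP controls was lost without GFP-303 (adjusted p = 0.0521) or GFP-307 (0.0534), and without the libraries rich in choroid plexus markers its log2 FC rose to 5.997 in AAV-GFP controls and 7.35 in AAV-A2A animals. Mt1 was then at 4.22 and 5.33 and Mt2 at 4.86 and 7.14, all still called. After removal of a per-library dependence on exonic length and GC, the differences in AAV-A2A animals fell to 5.59, 4.26 and 4.42 for Mt2, Mt1 and Mt3. The 2 fractions were counted in separate tables, so fraction and processing series cannot be told apart, nor can, in bulk RNA, fewer cells of a type and less RNA per cell. Pericyte and mural markers summed to 3534 to 5071 CPM in ACSA-2 and to 709 to 1958 CPM in CD11b libraries. Endothelial markers were at 1489 to 2237 and 1159 to 5635 CPM, and ependymal markers at 713 to 2406 and 89.6 to 601 CPM. Which cells of a fraction carried the metallothioneins was not tested.

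The CD11b libraries also held some astrocyte transcripts, and metallothionein levels were set against them. The CPM of Mt1 equalled 8.19 to 18.1% of the summed astrocyte markers in ACSA-2 libraries. In CD11b libraries the CPM of Mt1 equalled 27.2, 30.9 and 52.2% of that sum with eGFP, and 39.6, 12.6 and 15.02% with the A2A vector. Mt2 equalled 0.570 to 1.45% of the marker sum in ACSA-2 libraries, 1.09 to 2.18% in the CD11b libraries of AAV-GFP controls and 0.243 to 0.873% in those of AAV-A2A animals. All 12 astrocyte markers had counts in each CD11b library, and their sum overlapped between the vectors (348 to 538 CPM in AAV-GFP and 287 to 487 CPM in AAV-A2A libraries). The part of astrocyte RNA in the CD11b values was not tested.

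**Figure D2:**
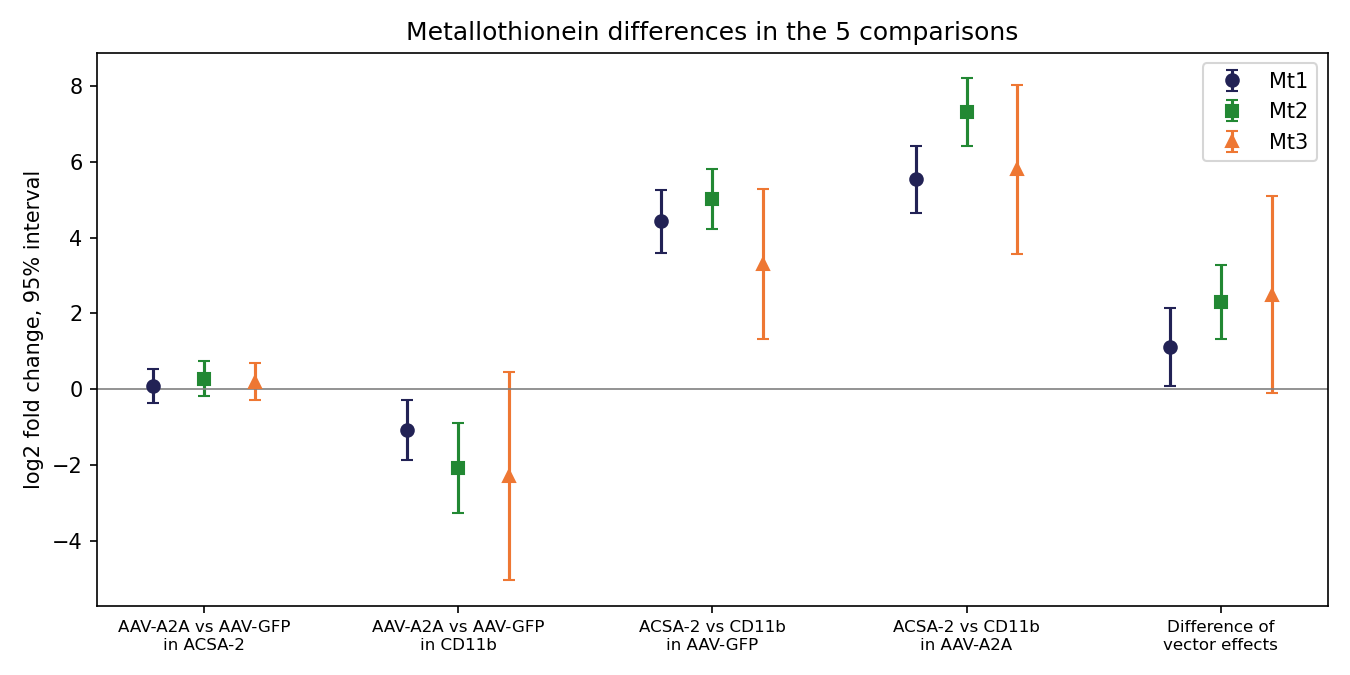
Log2 fold change with its 95% interval (edgeR) of Mt1, Mt2 and Mt3 in the 5 comparisons. ACSA-2 against CD11b lies above 0 for each gene and vector, AAV-A2A against AAV-GFP lies near 0 in ACSA-2 cells and below 0 in CD11b cells, and the interval of Mt3 in CD11b cells includes 0.

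Whether astrocytic A2A receptor overexpression went with a change of the metallothioneins in the transduced cell type was asked in the ACSA-2 fraction. None of the 3 genes passed the test. The log2 FC of AAV-A2A mice relative to AAV-GFP controls was 0.09 ± 0.20 for Mt1 (95% interval -0.36 to 0.53), 0.27 ± 0.21 for Mt2 (-0.19 to 0.74) and 0.20 ± 0.21 for Mt3 (-0.28 to 0.68), with adjusted p-values of 0.933, 0.691 and 0.803. In the same fit 3.36% of 16451 genes were called, and 7.13% with DESeq2, which called none of the 3 either. The value of Mt1 changed sign without A2A-309 (-0.08) and with the trend on length and GC removed (-0.11).

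In the CD11b fraction, whose cells were not the target of the vector's promoter, Mt1 and Mt2 were lower in each AAV-A2A library than in any AAV-GFP library. The log2 FC was -1.08 ± 0.33 for Mt1 (95% interval -1.88 to -0.29) and -2.08 ± 0.50 for Mt2 (-3.26 to -0.90) in edgeR's quasi-likelihood fit. After adjustment over the 16949 genes tested neither passed (adjusted p = 0.280 for both), nor did any other gene: 0% of genes were called, although 2704 had an unadjusted p under 0.05. Of all genes tested, 10.5% had every AAV-A2A library below every AAV-GFP library. DESeq2 called 2.90% of the genes it tested, Mt2 among them (log2 FC -2.08, adjusted p = 0.00790) and Mt1 not (adjusted p = 0.124); limma-voom called no gene. Mt3 had a log2 FC of -2.30 ± 1.16 (-5.05 to 0.45, adjusted p = 0.372), which became -3.995 without A2A-2347 and -1.85 without A2A-2344. With the trend on length and GC removed the 3 values shrank to -0.43 for Mt1, -1.19 for Mt2 and -1.55 for Mt3, with adjusted p-values of 0.526, 0.428 and 0.594.

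Mt3 and the other 2 genes differed in which CD11b libraries were high. The order of the 6 libraries by Mt3 was the order by summed choroid plexus markers, from GFP-2328 down to A2A-2344. Mt3 was at 29.3 to 95.1 CPM in the libraries rich in these markers and at 2.90 to 9.60 CPM in the others. Mt1 and Mt2 did not separate in this way: they were at 57.9 to 154 and 1.31 to 7.16 CPM in the libraries rich in choroid plexus markers, and at 61.4 to 182 and 1.18 to 7.60 CPM in the others. Since every AAV-A2A library lay below every AAV-GFP library for Mt1 and Mt2, the same order holds in any split of the libraries. With the 3 rich libraries left out, which leaves 1 AAV-GFP library against 2, the log2 FC stayed at -1.08 for Mt1 and -2.07 for Mt2 and moved to -1.21 for Mt3, with no gene called. With the log2 of the marker sum as a covariate the values were -1.19, -2.14 and -1.05 (adjusted p = 0.220 for each). Of the 10 choroid plexus markers, all had counts in each CD11b library, except Aqp1, a water channel of that epithelium, which was at 0 in A2A-2344.

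Other markers were lower with the A2A vector in the CD11b fraction as well. None was called by edgeR, which called 0% of all genes there. DESeq2 called 6 of 8 erythrocyte, 3 of 7 ependymal, 3 of 10 neuron and 3 of 10 endothelial markers lower and none higher. Its share over all genes was 2.90% in either direction. Of single genes, 10.5% were lower in every AAV-A2A library than in every AAV-GFP library. The 8 erythrocyte markers, each with counts in every CD11b library, summed to 1036 to 6065 CPM in AAV-GFP and to 58.0 to 261 CPM in AAV-A2A libraries, which did not overlap. The 7 genes of the ependymal list in the tables, of which Tm4sf1 had the highest CPM, summed to 293 to 601 and 89.6 to 152 CPM, again without overlap. Whether Tm4sf1 came from ependymal cells was not tested. The 10 neuron markers summed to 133 to 282 and 67.6 to 132 CPM, which nearly touched; of these markers Gad1 was at 0 in GFP-2331 and A2A-2347, Slc17a7 in A2A-2347 and Syt1 in A2A-2344. Endothelial markers summed to 1781 to 5635 and 1159 to 2756 CPM, and microglia markers to 12812 to 93956 and 29832 to 100142 CPM, which overlapped. The part of these cells in the lower Mt1 and Mt2 was not tested.

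**Figure D3:**
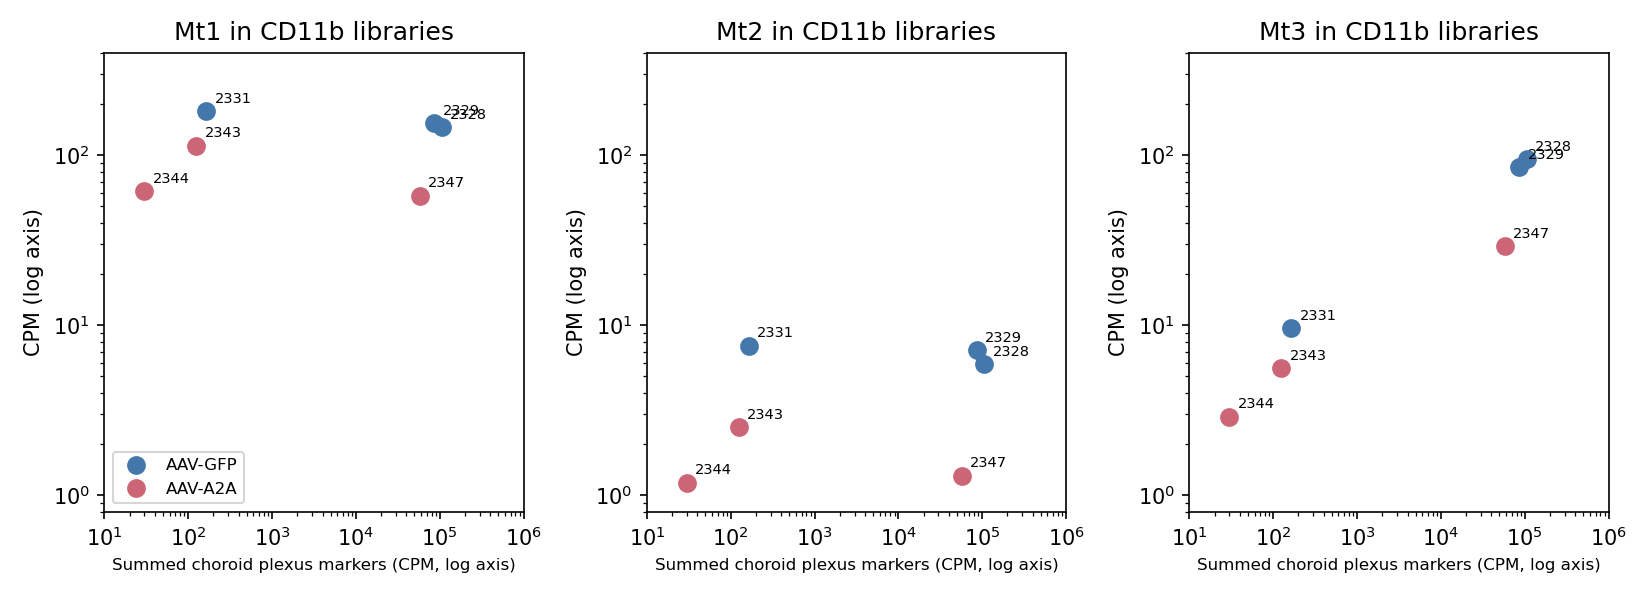
CPM of Mt1, Mt2 and Mt3 in the 6 CD11b libraries (log axis) against the summed CPM of 10 choroid plexus markers (log axis), with the label number beside each point. Mt3 rises with the marker sum over all 6 libraries. For Mt1 and Mt2 every AAV-A2A library lies below every AAV-GFP library, which fixes their order at any marker sum. The same holds for 10.5% of all genes tested.

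The difference between the vector effects of the fractions (ACSA-2 minus CD11b) was tested as an interaction over the 12 libraries. It was 2.29 ± 0.44 for Mt2 (95% interval 1.32 to 3.27, adjusted p = 0.0521), 1.11 ± 0.47 for Mt1 (0.07 to 2.14, adjusted p = 0.223) and 2.499 ± 1.19 for Mt3 (-0.10 to 5.10, adjusted p = 0.273) on the log2 scale. None of the 3 was called, where 0.403% of 18602 genes were. Without the libraries rich in choroid plexus markers the differences were 2.28 for Mt2, 1.11 for Mt1 and 1.35 for Mt3, and without A2A-2347 that of Mt3 was 4.07. DESeq2, which called 4.19% of genes in this direction, called Mt2 (adjusted p = 9.72e-05) and not Mt1 (0.0721) or Mt3 (0.142). In edgeR Mt2 passed without GFP-2331 (adjusted p = 0.0245), without A2A-2343 (0.00893), or with at least 10 counts required in every library (0.0296), and it fell to 1.18 (adjusted p = 0.220) with the trend on length and GC removed. The whole comparison moved with single libraries, since 1286 genes were called without GFP-2331 and 830 without A2A-2343, against 75 with all.

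Ratios within a library do not depend on its scaling. In ACSA-2 libraries there were 14.5 to 16.7 counts of Mt1 per count of Mt2 with eGFP and 12.5 to 14.4 with the A2A vector. In CD11b libraries there were 21.5 to 24.9 with eGFP and 44.4 to 51.9 with the A2A vector. The groups did not overlap in either fraction and lay in opposite order, with a difference of -0.16 in ACSA-2 and 1.01 in CD11b on the log2 scale. The exact two-sided permutation test gave p = 0.10 for both, the smallest p that 3 libraries against 3 allow. Mt1 per Mt3 was 4.85 to 6.49 and 4.72 to 5.62 in ACSA-2 libraries (exact permutation p = 0.50). In CD11b libraries it was 1.54, 1.81 and 1.98 in the libraries rich in choroid plexus markers and 18.9, 20.4 and 21.2 in the others.

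Expressed as shares of the summed CPM per kb, Mt1 made up 74.1 ± 1.82% (SD, n = 3) of the metallothionein signal in ACSA-2 cells of AAV-GFP controls, Mt3 15.6 ± 1.89% and Mt2 10.3 ± 0.684%. In AAV-A2A animals the shares were 72.3 ± 1.26, 16.5 ± 1.21 and 11.2 ± 0.782%, and differed from the controls by about as much as the spread between libraries. In CD11b cells the share of Mt3 was 41.2, 37.0 and 36.1% in GFP-2328, GFP-2329 and A2A-2347, and 5.37, 5.20 and 5.03% in GFP-2331, A2A-2343 and A2A-2344. Mt2 made up 4.62 to 7.70% in AAV-GFP and 2.92 to 4.23% in AAV-A2A libraries of that fraction. Counted only over bases of no other gene, its share in ACSA-2 cells was 16.2% in AAV-GFP controls and 17.6% in AAV-A2A animals.

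**Figure D4:**
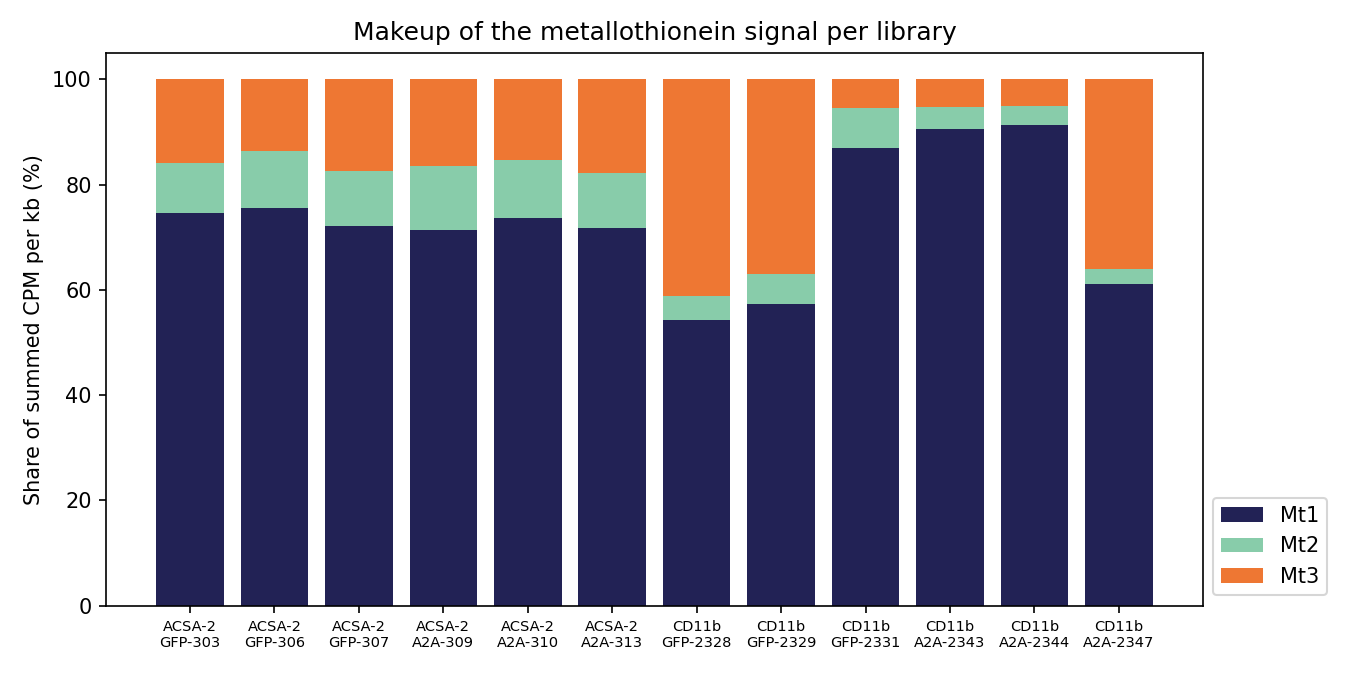
Share of Mt1, Mt2 and Mt3 in the summed CPM per kb of exonic length, as stacked bars for each of the 12 libraries. The 6 ACSA-2 libraries share 1 makeup, with Mt1 at 71.5 to 75.6%, while CD11b libraries fall at 2 levels of Mt3, 5.03 to 5.37% and 36.1 to 41.2%.

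The genes that regulate or accompany metallothioneins were examined from fixed lists. Mtf1, the zinc sensor that drives Mt1 and Mt2, had a log2 FC with the vector of 0.68 ± 0.39 in ACSA-2 (adjusted p = 0.540) and 0.54 ± 0.30 in CD11b cells (adjusted p = 0.415). It was lower in the ACSA-2 than in the CD11b fraction of AAV-GFP controls, by a log2 FC of -1.63 (adjusted p = 0.00525), opposite to its targets. Mtf2, a Polycomb-associated protein listed beside Mtf1 for its name, was the one with more counts and stood at -0.32 in ACSA-2 and 0.38 in CD11b cells, neither called. Neither of the 2 genes of this list was called with the vector, and the medians were 0.18 and 0.46. The summed CPM of the 2 genes in CD11b libraries was 38.9 to 51.9 in AAV-GFP and 58.2 to 72.0 in AAV-A2A libraries. The sum rests more on Mtf2 than on Mtf1, and its relation to Mt1 and Mt2 was not tested.

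Of the zinc exporters (ZnT family), 7 of 10 were tested in ACSA-2 cells and 1 was called, where 3.36% of all genes were. Slc30a9, the member with the highest CPM in both fractions and a transporter acting on mitochondrial zinc, fell from 446 to 673 CPM in AAV-GFP to 122 to 175 CPM in AAV-A2A libraries (log2 FC -1.81 ± 0.22, adjusted p = 0.00279). Slc30a1, the plasma membrane exporter that is like Mt1 a target of MTF1, had a log2 FC of 0.37 in ACSA-2 cells and -0.45 in CD11b cells, neither called; it was chosen after its values were seen. The median of the list was 0.20 in ACSA-2 and -0.04 in CD11b cells, where 8 were tested, against 0.02 and -0.05 for all genes. Of the 14 zinc importers (ZIP family), 12 were tested in ACSA-2 and 13 in CD11b cells and none was called by edgeR, with medians of -0.12 and 0.65. DESeq2, which called 7.13% of all genes in ACSA-2 cells, called 1 importer higher and 1 lower there. The importer with the highest CPM, Slc39a12 in ACSA-2 and Slc39a13 in CD11b cells, stood at 0.14 and -0.31.

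All 10 genes of copper handling were tested in both fractions and none was called, with medians of 0.24 in ACSA-2 and -0.71 in CD11b cells. Ccs, the chaperone that loads copper onto superoxide dismutase, had the highest CPM of the list in ACSA-2 cells and a log2 FC of 0.55 (adjusted p = 0.180). Slc31a1, the copper importer, had the highest CPM in CD11b cells and a log2 FC of -0.59 (adjusted p = 0.804). The summed CPM of this list was 910 to 1084 in the CD11b libraries rich in choroid plexus markers and 332 to 477 in the others. None of the 10 genes of iron handling was called either, with medians of 0.08 and 0.44. Fth1, a ferritin subunit, had the highest CPM of this list in ACSA-2 cells (log2 FC 0.35), and Trf, transferrin, in CD11b cells (0.45).

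Genes of the inducers other than metals were read against the same 3.36% of all genes called in ACSA-2 cells. Of the glucocorticoid response list, 13 of 14 genes were tested there and 2 fell: Errfi1, a feedback inhibitor of the EGF receptor, from 198 to 314 CPM in AAV-GFP to 27.3 to 72.7 CPM in AAV-A2A libraries (log2 FC -2.54 ± 0.36, adjusted p = 0.00505), and Per1, a clock gene, from 26.1 to 39.3 to 6.65 to 11.5 CPM (-1.78 ± 0.30, adjusted p = 0.0110). Hsd11b1, which regenerates active glucocorticoid and had the highest CPM of the list, stood at -0.21 (adjusted p = 0.769). Of the 12 genes of the gp130 and STAT3 list 3 were called. Il6st, which encodes gp130, fell by 1.40 ± 0.19 (adjusted p = 0.00421), Stat3 fell by 1.45 ± 0.31 (adjusted p = 0.0334) and Serpina3n, a marker of reactive astrocytes, rose by 1.93 ± 0.21 (adjusted p = 0.00212) on the log2 scale. Gfap, the intermediate filament gene with the highest CPM of the list, stood at 0.70 ± 0.27 (adjusted p = 0.285). The medians of the 2 lists were -0.45 and 0.17, against 0.02 for all genes. DESeq2, which called 7.13% of all genes in ACSA-2 cells, called 1 gene higher and 3 lower in each of these lists. The call of Stat3 was lost without any 1 of the 6 libraries (adjusted p between 0.0546 and 0.135), and that of Per1 without GFP-306 (0.0653).

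In CD11b cells edgeR called no gene of either list, as it called 0% of all genes there. The medians were 0.01 over 14 glucocorticoid response genes and 0.79 over 12 genes of the gp130 and STAT3 list. DESeq2, which called 2.90% of all genes, called 1 gene of the first list lower and 1 of the second higher. Sgk1, a kinase induced by glucocorticoids, had the highest CPM of the first list there and stood at 0.08. Socs3, the feedback inhibitor of this cytokine pathway, had the highest CPM of the second and stood at 1.06 (adjusted p = 0.333).

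**Figure D5:**
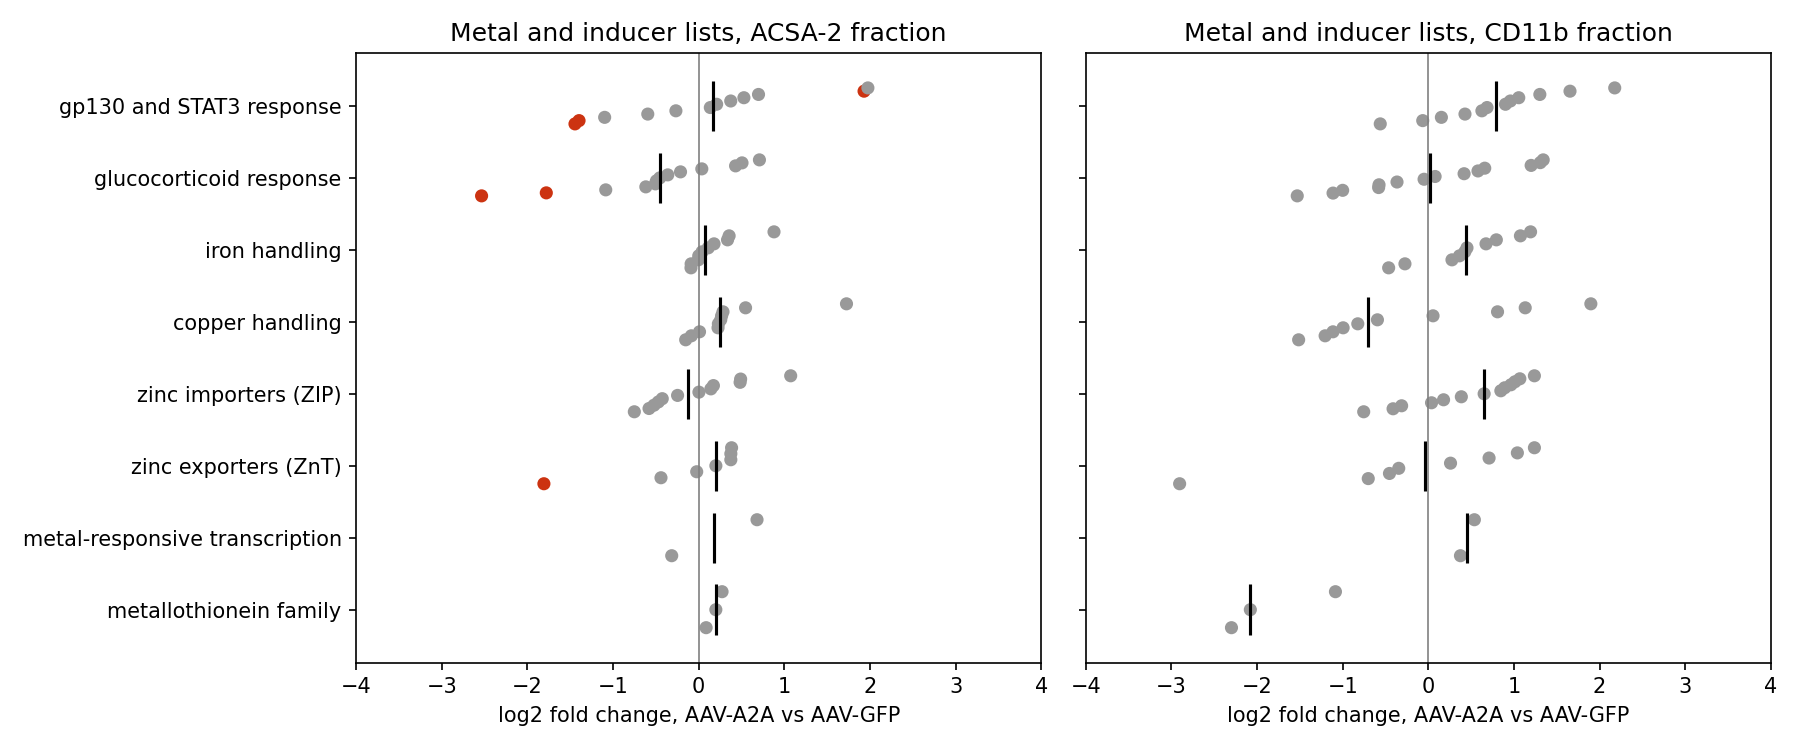
Log2 fold change of AAV-A2A against AAV-GFP for each tested gene of the 8 lists, in ACSA-2 (left) and CD11b cells (right). Points are genes, red where called, and black lines are list medians. The 6 called genes are all in the ACSA-2 fraction, as edgeR called 0% of all genes in CD11b cells. The 3 metallothioneins lie between -2.30 and -1.08 in CD11b cells.

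The genes around the metallothioneins were examined in the same fits. Of 19 annotated genes within 300 kb of the cluster, 8 were tested in ACSA-2 cells and 2 were called, where 3.36% of all genes were. Ogfod1, a prolyl hydroxylase of a ribosomal protein, fell there by 1.86 ± 0.39 on the log2 scale (adjusted p = 0.0308), a call that was lost in 5 of the 6 fits that leave out 1 library (all but the one without A2A-310, adjusted p between 0.0529 and 0.124). The 6 neighbours that were not called ranged from -0.19 to 0.24. In CD11b cells 11 neighbours were tested and none was called, with values from -2.00, that of Gm45774, to 0.58.

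The likeness of other genes to the metallothioneins was measured as Pearson's r of log2 CPM over the 12 libraries, among 18601 other genes, as a description. Since the 2 fractions differ widely, r was high for many genes. Mt1 was most like Mt2 (r = 0.996), Fabp5 and Fabp7 (both fatty acid binding proteins, of which Fabp7 is typical of astrocytes and their progenitors), Cbr3 (a carbonyl reductase) and Gm6166. Mt2 was most like Mt1, S100a13, Pigyl, Fabp7 and H2afv (r between 0.993 and 0.996). Among the genes most like Mt3 were Zfp428, S100a1, Cystm1 and Dgcr6 (r between 0.995 and 0.997), none of which was named for Mt1 or Mt2.

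With the 4 group means subtracted, which leaves the variation between libraries of a group, Mt1 and Mt2 still moved together (r = 0.954). Over the 12 libraries pooled, Mt3 did not move with Mt1 (-0.28) or Mt2 (-0.13). Among the genes then most like Mt1 were Rpl8, Selenoh, Trir and Gabarap (r between 0.954 and 0.972), and among those most like Mt2 were Zfp36l1, Rpl7, Rpl8 and Mt1 (0.954 to 0.972). Of these, Rpl8 and Rpl7 encode ribosomal proteins, and all of the genes named here for Mt1 and Mt2 had exons of 902 to 2990 bases in all, under the median of 3740 bases over the genes tested. Mt3 was most like Fabp3, Bola3, Tmem184a, Hopx and Msx1 (0.989 to 0.995). The 12 points share library depth, and the 6 CD11b libraries also their differences in choroid plexus markers. The pooled r of Mt3 thus holds its wide spread over CD11b libraries (2.90 to 95.1 CPM), and no r was computed within 1 fraction. Among ACSA-2 libraries, GFP-303 and A2A-309 were the highest of their group for each metallothionein, while the order of the others differed between Mt1 and Mt3.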

How the data were processed

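RNA of 12 libraries was sequenced by the authors after full-length cDNA amplification and transposase fragmentation, without molecular identifiers. They trimmed reads with cutadapt 1.10, mapped them with STAR 2.5.3 to mm10 and deposited raw read counts per Ensembl gene, made with HTSeq 0.6.1p1 from reads that aligned uniquely to a single gene. Intervals and fits thus treat PCR copies as reads. Groups were taken from the sample labels and columns. Here, counts were fitted with edgeR 4.0.16 (TMM, filterByExpr, robust quasi-likelihood) in R 4.3.3: the 6 libraries of a fraction for the vector, and all 12 for fractions and the interaction. SE is the log2 FC over the root of F, and p-values were adjusted by Benjamini-Hochberg over all genes tested. DESeq2 1.42.0, limma-voom (limma 3.58.1), other factors, filters, a length and GC offset and left-out libraries were alternatives, and the fit was tested on simulated data. Pairs of replicates differed by far more than sampling noise (chi-square per degree of freedom from 51.6 to 1199 in 12 pairs).

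Annotation was GENCODE for GRCm38. The members and lists were chosen with earlier results of these data known. Genes were named if they were Mt1 to Mt4, Mtf1, a list member or neighbour called with the vector, the member with the highest CPM of a list in a fraction, or among the 5 most alike; others are marked. Some genes that this rule names are not reported here. No sample column was left unused, and Mt4 was not analysed here. Figures were drawn with matplotlib 3.10.9.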

Additional observations from a re-analysis of the deposited data

How the results depend on the processing

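No paired analysis was possible because the groups share no replicate number. The 3 libraries a group, the uneven CD11b sorting and the bases of Mt2 shared with an antisense gene limit these values; where a cause is not named it was not tested. Mt1 and Mt2 kept their fraction calls under all 21 alternatives. Genes called with the vector in ACSA-2 cells numbered 1277 with DESeq2, 156 in a fit of all 12 libraries and 272 (without GFP-306) to 448 (without A2A-309) with 1 library left out, against 553. Mt1 there ranged from -0.076 to 0.20 with 1 library left out and was -0.11 with the trend on length and GC removed. In CD11b cells DESeq2 called 502 genes, Mt2 among them (-2.08). Leaving out the 3 libraries poor in choroid plexus markers, an alternative chosen after seeing the data like the other 2 on these markers, gave 2363 calls and -1.32, -2.26 and -1.56 for Mt1, Mt2 and Mt3, all called; it leaves 2 libraries against 1, so the spread rests on 1 pair. Mt3 between fractions of AAV-GFP controls ranged from 2.79 to 3.72 with 1 library left out. For the difference between fractions, 1740 genes were called with DESeq2, 10 with RLE factors, 345 with at least 10 counts required, 0 with upper-quartile factors, the trend removed or the choroid-rich libraries left out, and 0 to 1286 with 1 library left out. Mt2 there was 2.36 with DESeq2, 2.37 with at least 10 counts required and 2.04 to 2.70 with 1 library left out.

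Of genes named but not called, Slc39a12 turned to -0.086 (trend removed) and ranged from -0.19 (without A2A-313) to 0.31 in ACSA-2 cells. In CD11b cells Sgk1 turned to -0.071 (upper-quartile factors), -0.19 (trend removed), -0.032 (without GFP-2329, the lowest; the highest was 0.24), -0.0058 (without A2A-2343), -0.098 (choroid-rich left out) and -0.070 (marker covariate). Slc39a13 turned to 0.026 (without GFP-2328, the highest; the lowest was -0.72), 0.10 (choroid-rich left out) and 0.17 (covariate), and Slc31a1 to 0.42 (rich left out), 0.11 (poor left out) and 0.58 (covariate). Il6st lost its call in the fit of all 12 libraries (adjusted p = 0.194). Shares of raw counts were 80.3 and 78.8% for Mt1 and 5.24 and 5.76% for Mt2 in ACSA-2 cells of AAV-GFP and AAV-A2A animals, and 3.03 and 1.78% for Mt2 in CD11b cells. Over bases of no other gene they were 70.7 and 68.6% for Mt1, 16.2 and 17.6% for Mt2 and 13.1 and 13.7% for Mt3 in ACSA-2 cells, and 9.84 and 5.97% for Mt2 in CD11b cells.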

Other observations

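Markers of other cells were compared between vectors as the metallothionein lists were. In ACSA-2 cells 1 marker was called, Flt1, a VEGF receptor of endothelium, among 10 endothelial genes (median log2 FC -0.48). The medians there were 0.02 for astrocyte, 0.01 for microglia, -0.33 for pericyte and mural, 0.24 for choroid plexus, 0.05 for ependymal, 0.20 for oligodendrocyte, 0.12 for neuron, 0.13 for border macrophage and -0.17 for erythrocyte markers, and no monocyte or neutrophil marker was tested. In CD11b cells edgeR called none. The medians were -0.50 for astrocyte, 0.38 for microglia, -0.24 for endothelial, 0.16 for pericyte and mural, -1.81 for choroid plexus, -2.07 for ependymal, -0.20 for oligodendrocyte, -2.30 for neuron, 1.00 for border macrophage, -4.05 for erythrocyte and -0.16 for monocyte and neutrophil markers. DESeq2 called 6 of the 8 erythrocyte markers lower, where it called 2.90% of all genes in either direction. The marker with the highest CPM of each list in ACSA-2 cells, with its log2 FC, was Aldoc (0.22, an astrocytic aldolase), C1qb (0.39), Bsg (0.15), Vtn (-0.16), Ttr (0.59), Tm4sf1 (0.06), Cryab (0.19), Ppp3ca (0.20), Cbr2 (0.22) and Hbb-bs (-0.19), none called; S100a9, of the monocyte and neutrophil list, was not tested. In CD11b cells it was Slc1a3 (0.47, the glutamate transporter GLAST), Csf1r (1.74, the receptor microglia need to survive), Bsg (-1.34), Vtn (-0.02), Ttr (-2.26), Tm4sf1 (-1.50), Cryab (-2.32), Ppp3ca (0.37), Stab1 (1.35), the haemoglobin gene Hbb-bs (-4.60) and Ngp (0.44), none called by edgeR.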
